A study of Mus musculus with 7 samples.

Results

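Activity-induced immediate early genes were followed here in the prefrontal cortex of mice that overexpressed a human long noncoding RNA. The 10 genes were Fos, Fosb, Junb, Egr1, Egr2, Egr4, Arc, Npas4, Nr4a1 and Ier2, taken by name among the 21885 protein-coding genes of a table of 55416 genes. All 10 were among the 17254 genes with enough counts to be tested. The clearest differences were in Arc and Npas4. Arc was 2.57-fold lower in the alternative-allele group than in controls and 2.44-fold lower than in the reference-allele group. Npas4 was about as low in both groups that carried the RNA, 2.92-fold and 2.88-fold below controls. With edgeR's quasi-likelihood test and Benjamini-Hochberg adjustment over all genes, none of the 10 passed an adjusted p of 0.05 in any comparison.

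Immediate early genes are transcribed within minutes of synaptic activity and calcium entry, without the need for new protein. Kinases activated by calcium and cAMP phosphorylate CREB and the partners of SRF, which already sit on these genes, so their RNA is widely read as a marker of recent neuronal activity. Most encode transcription factors that act on a later set of effector genes, whereas Arc encodes a protein that acts at the synapse itself. Their transcripts are short-lived, so their level in tissue reflects the period shortly before it was taken.

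All mice were female wild-type C57BL/6 that had received a recombinant adeno-associated virus (rAAV) in the prefrontal cortex on both sides. In the Alt group (2 libraries) the virus carried human PAXIP1-AS1 with the G allele of rs112651172, in the Ref group (2 libraries) the same RNA with the C allele, and in the Ctr group (3 libraries) no insert. The human synapsin I promoter limits the inserted RNA to neurons, and poly(A) RNA of the whole tissue was sequenced, so transduced and other cells were read together. Ages of the sequenced mice are not given, the human transcript was not analysed here, and nothing says whether libraries came from separate mice, so p-values measure only the spread between these libraries, which may be technical. Total counts ran from 16655697 in Alt replicate 1 to 20750857 in Ctr replicate 3, the share of mitochondrial counts from 12.2% to 16.6%. Excitatory neuron markers were present in all libraries, with Slc17a7, the vesicular glutamate transporter of cortical neurons, at 1127 to 1560 CPM (counts scaled to the library size). Their 8 genes did not move together, and their values in Alt are given with the markers of other cell types. Alt replicates 1 and 2 differed more from each other than other replicates did, with a chi-square over genes, per degree of freedom, of 62.9 against 19.7 to 26.8 for the other replicate pairs. In bulk tissue, fewer neurons and less RNA per neuron cannot be told apart.

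Activity acts on genes of this class partly through CREB and SRF, whose short binding motifs were searched in the promoters. RefSeq promoter windows (GRCm38.p6) matched 7 of the 10 genes and not Egr1, Arc or Ier2. In the 250 bases before the start, TGACG, the core of the cAMP response element that CREB binds, was searched on both strands. It occurred in 9 of the 11 windows of these 7 genes and in each gene at least once, against 17.8% of all 32851 windows. The full element TGACGTCA, which contains TGACG, occurred in 0 of the 11 windows and in 1.55% of all windows. The CArG box bound by SRF occurred in 4 windows, all of Egr2, against 1.47% of all windows. Sites farther upstream than these 250 bases were not searched, so a gene without a match may hold one elsewhere. Egr2 accounts for 5 of the 11 windows, some overlapping, so windows are not independent. The windows of Npas4, Fos, Egr2, Nr4a1 and Egr4 are shown because they hold the motif in genes that were lower in Alt than in Ctr at an unadjusted p under 0.05 (Npas4, Nr4a1 and Egr4) and in genes that were not (Fos and Egr2), with TGACG (or CGTCA, its reverse complement) in capitals and, in Egr2, also the CArG box.
Npas4, chr19:4989972-4990221, minus strand: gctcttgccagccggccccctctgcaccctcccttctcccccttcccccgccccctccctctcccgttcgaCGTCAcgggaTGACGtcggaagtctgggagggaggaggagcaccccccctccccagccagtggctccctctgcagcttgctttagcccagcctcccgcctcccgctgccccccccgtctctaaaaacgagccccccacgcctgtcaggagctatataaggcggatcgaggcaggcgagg
Fos, chr12:85473640-85473889, plus strand: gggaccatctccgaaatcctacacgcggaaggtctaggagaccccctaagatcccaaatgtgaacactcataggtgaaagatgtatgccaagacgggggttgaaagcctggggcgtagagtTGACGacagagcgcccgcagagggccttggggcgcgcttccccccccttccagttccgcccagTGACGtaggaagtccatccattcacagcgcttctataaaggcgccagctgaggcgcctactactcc
Egr2, chr10:67537619-67537868, plus strand: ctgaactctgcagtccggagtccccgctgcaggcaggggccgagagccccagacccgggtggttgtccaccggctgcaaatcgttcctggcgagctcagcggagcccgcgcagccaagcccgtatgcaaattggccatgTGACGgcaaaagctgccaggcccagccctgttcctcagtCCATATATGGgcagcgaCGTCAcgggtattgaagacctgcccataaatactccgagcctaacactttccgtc
Nr4a1, chr15:101266596-101266845, plus strand: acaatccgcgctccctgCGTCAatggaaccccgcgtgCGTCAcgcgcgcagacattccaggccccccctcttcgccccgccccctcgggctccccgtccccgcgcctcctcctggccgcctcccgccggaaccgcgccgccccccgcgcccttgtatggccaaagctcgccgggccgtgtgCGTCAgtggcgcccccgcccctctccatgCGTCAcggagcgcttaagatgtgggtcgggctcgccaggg
Egr4, chr6:85513590-85513839, minus strand: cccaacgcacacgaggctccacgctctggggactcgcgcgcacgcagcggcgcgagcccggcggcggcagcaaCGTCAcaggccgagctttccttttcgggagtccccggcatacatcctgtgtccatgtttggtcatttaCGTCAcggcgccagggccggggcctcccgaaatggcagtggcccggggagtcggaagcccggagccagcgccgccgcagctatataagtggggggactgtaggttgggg
Npas4 held 2 TGACG matches on opposite strands, beginning 179 and 169 bases before the start. Fos held 2, the nearer at 66 bases, and Nr4a1 held 4, the nearest at 40 bases. In Egr2 the CArG box lay between 2 matches, from 72 to 63 bases before the start. A match of letters is a description and not a measured binding site.

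Levels were compared between genes as the deposited TPM, which are per gene length. In Ctr, Egr1, a zinc-finger factor, stood first with 352 ± 56.2 TPM (SD, n = 3), at the 99th percentile of protein-coding genes. Arc followed with 266 ± 71.8 TPM and overlapped Egr1 in range. Junb, Nr4a1, Egr4 and Fos formed a middle tier between 104 and 73.5 TPM in which each neighbour overlapped the next. Ier2 stood apart at 33.8 ± 5.92 TPM. Npas4, Egr2 and Fosb were lowest, at 20.8 ± 4.23, 19.0 ± 6.41 and 12.9 ± 3.12 TPM, again with overlapping neighbours. The order was not the same in every group. In Ref, Arc and Egr1 overlapped at the top and Npas4 was last at 6.98 ± 0.584 TPM (n = 2), below both values of Egr2. In Alt, Egr1 (169 and 283 TPM) lay above Arc (78.7 and 119 TPM) without overlap, and Npas4 was again last at 6.69 ± 2.89 TPM (n = 2).

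**Figure D1:**
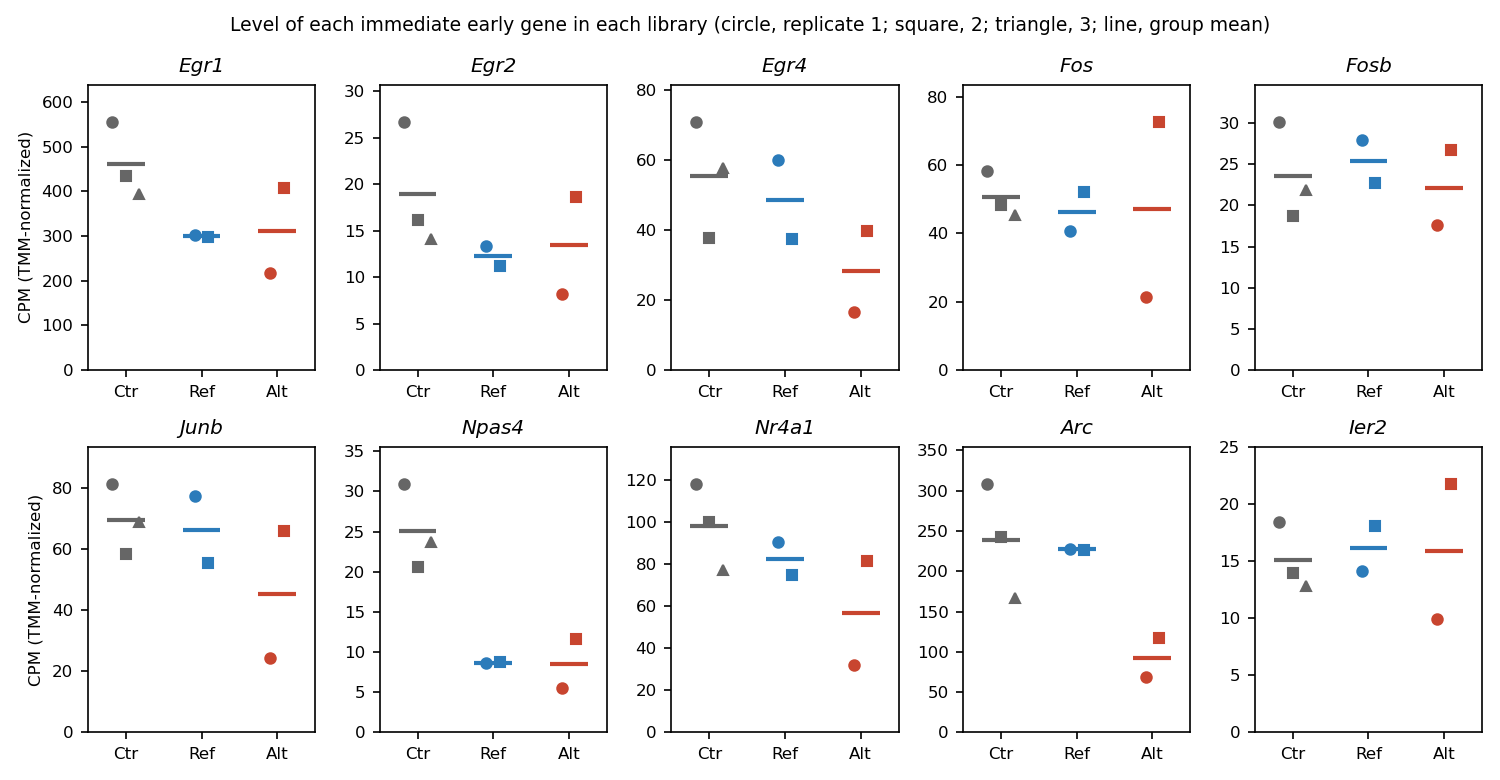
Level of each immediate early gene in CPM (linear axes from 0, scaled by gene) in the 3 Ctr, 2 Ref and 2 Alt libraries, with symbols for the replicate number and a line at the group mean. Both Alt libraries lie below all others for Arc, both Ref and both Alt libraries lie below all Ctr libraries for Npas4, and Alt replicate 1 is the lowest library in all 10 panels.

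The 10 genes moved together from library to library, mostly through 1 library. Alt replicate 1 was the lowest of the 7 libraries for 10 of 10 genes, against 32.2% of all genes tested. It was below Alt replicate 2 for all 10, by 1.51-fold in Fosb up to 3.38-fold in Fos, as it was for 51.9% of all genes tested. Summed over the 10 genes, the libraries held 1299, 991 and 884 CPM in Ctr, 863 and 806 CPM in Ref, and 423 and 863 CPM in Alt. Alt replicate 2 therefore lay within the range of Ref and close to the lowest Ctr library. Ctr replicate 1 was the highest library for 8 genes, and Alt replicate 2 for the other two, Fos and Ier2. The spread within groups was larger than usual: the median within-group SD of log2 CPM was 0.495 for the 10 genes and 0.317 for all genes tested. Over the 7 libraries the 45 pairs of genes had a median Pearson r of 0.741 (0.308 to 0.964), and without Alt replicate 1 it was 0.382 (-0.441 to 0.928), as a description of libraries that share depth and scaling. Alt replicate 1 also had the lowest total count. Both Alt libraries had the highest Spearman correlation, across genes, of a gene's deviation from the Ctr mean with its length. It was 0.341 in replicate 1 and 0.208 in replicate 2, against -0.212 to 0.121 in Ctr and Ref. This relation therefore goes with the group. The Ctr libraries make up that mean, so their own values are bound to it. Those of the Ref libraries were -0.0943 and 0.0822. The part of depth in these results was not tested. With a correction for length, the log2 fold changes in Alt against Ctr were -1.20 for Arc, -1.47 for Npas4, -0.73 for Egr4, -0.68 for Nr4a1 and -0.52 for Egr1. In Ref against Ctr they were -1.58 for Npas4 and -0.67 for Egr1, and in Alt against Ref -1.05 for Arc.

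**Figure D2:**
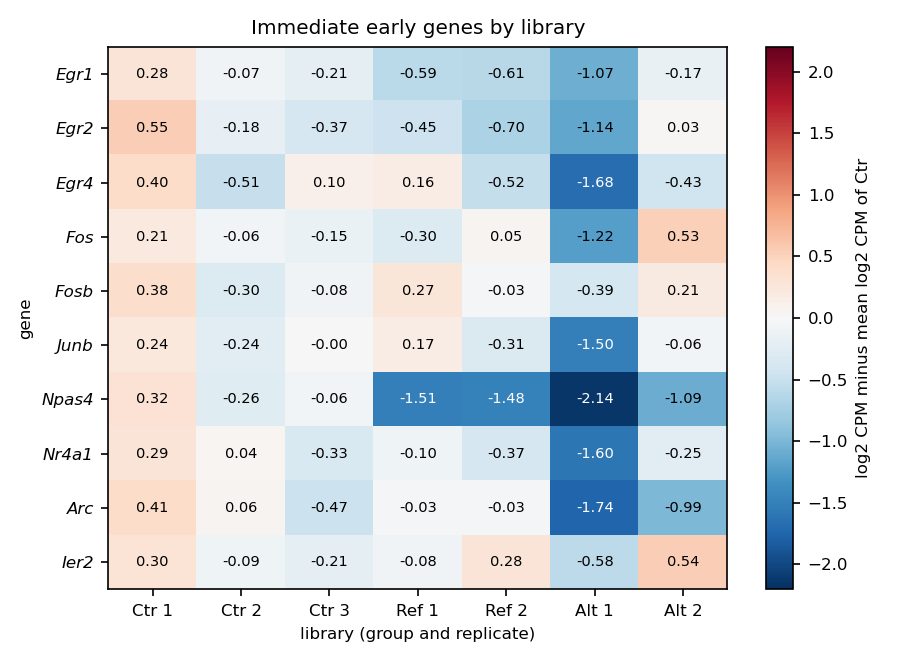
Difference of each gene's log2 CPM from the mean of the 3 Ctr libraries (blue, lower; red, higher), with genes in rows and libraries in columns. Alt replicate 1 is blue for all 10 genes, whereas in Alt replicate 2 only Npas4 (-1.09) and Arc (-0.99) lie more than 0.5 below the control mean.

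The comparison of Alt with Ctr asks what the alternative-allele RNA does to cortical expression relative to an empty virus. Of the 10 genes, 5 (Arc, Npas4, Egr4, Nr4a1 and Egr1) were lower at an unadjusted p under 0.05 and 0 were higher. In the same comparison 10.3% of all genes tested were lower and 9.45% higher at that level, and none passed an adjusted p of 0.05. The median log2 fold change of the 10 genes was -0.59, against -0.03 for all genes. Of the 10 genes, 9 were below 0, as were 8984 of all 17254 genes tested.

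Arc, which drives internalization of AMPA receptors, had 308, 242 and 167 CPM in Ctr, 228 and 227 CPM in Ref, and 69.1 and 117 CPM in Alt. Both Alt libraries lay below all 5 others. Arc was the only one of the 10 genes for which Alt replicate 2 did so. Of all genes tested, 20.2% had Alt replicate 2 below all Ctr and Ref libraries. The share with both Alt libraries below all others was not computed. Its log2 fold change was -1.36 ± 0.27 (SE) against Ctr, ranking 26th of all genes by p, with an adjusted p of 0.12 from edgeR's quasi-likelihood test. DESeq2's Wald test gave -1.34 and an adjusted p of 0.000166. Without Alt replicate 1 the edgeR fold change was -1.03 (adjusted p = 0.425), and with a correction for gene length -1.20 (adjusted p = 0.0848).

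Npas4, a neuron-restricted bHLH-PAS factor that responds to calcium and controls inhibitory synapses, had 30.9, 20.6 and 23.7 CPM in Ctr, 8.61 and 8.79 CPM in Ref, and 5.53 and 11.6 CPM in Alt. All 4 libraries with the human RNA lay below all 3 controls, with raw counts of 85 to 208 against 419 to 623. Without overlap, 18.1% of all genes tested were lower in Alt than in Ctr and 10.5% in Ref than in Ctr. The share of genes with all 4 libraries below all controls was not computed. For Alt against Ctr the log2 fold change was -1.55 ± 0.32, with an adjusted p of 0.12 in edgeR and 0.00146 in DESeq2. Without Alt replicate 1 it was -1.11 (edgeR adjusted p = 0.438).

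The EGR factors differed among themselves. Egr4 had 70.8, 37.7 and 57.6 CPM in Ctr and 16.6 and 39.7 CPM in Alt, a log2 fold change of -0.97 ± 0.36 (edgeR adjusted p = 0.172). Egr1, an often used marker of cortical activation, had 556, 435 and 395 CPM in Ctr and 218 and 408 CPM in Alt, with -0.56 ± 0.24 (edgeR adjusted p = 0.221). In both, Alt replicate 2 fell within the control range. Egr2, best known for its role in myelinating Schwann cells, had 26.7, 16.1 and 14.1 CPM in Ctr and 8.19 and 18.6 CPM in Alt (-0.50 ± 0.36, edgeR adjusted p = 0.469). Without Alt replicate 1 the log2 fold changes were -0.48 for Egr4, -0.18 for Egr1 and -0.03 for Egr2.

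Nr4a1, an orphan nuclear receptor, had 118, 99.9 and 77.1 CPM in Ctr and 32.0 and 81.6 CPM in Alt, a log2 fold change of -0.79 ± 0.32 (edgeR adjusted p = 0.2) and -0.27 without Alt replicate 1. The AP-1 subunits did not pass. Junb had 81.4, 58.5 and 69.0 CPM in Ctr and 24.4 and 66.1 CPM in Alt (-0.62 ± 0.33, edgeR adjusted p = 0.319), and was at -0.08 without Alt replicate 1. The gene overlaps Prdx2 on the opposite strand over 351 bases, and whether counting used strand is not given in the sources used here. Fos had 58.1, 48.2 and 45.3 CPM in Ctr and 21.5 and 72.7 CPM in Alt, so that the 2 Alt libraries were the lowest and the highest of all 7. Its log2 fold change was -0.10 ± 0.36 in edgeR and turned to 0.52 without Alt replicate 1. Fosb, the source of the long-lived product deltaFosB, gave -0.09 ± 0.26, and Ier2, a small nuclear protein of the immediate early class, gave 0.08 ± 0.31.

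Markers of other cell types were read in the same comparison. Of 8 inhibitory neuron markers, 3 were lower in Alt at an unadjusted p under 0.05 and 0 higher, with summed levels of 261 and 265 CPM in Alt and 293 to 376 CPM in Ctr. The peptide gene Sst, a marker of one interneuron class, had 54.8, 46.9 and 70.8 CPM in Ctr and 17.95 and 33.6 CPM in Alt (-1.15 ± 0.26, edgeR adjusted p = 0.12). Among 8 astrocyte markers 1 was higher, the glutamate transporter gene Slc1a2 with 9528 and 5964 CPM in Alt and 3484 to 4827 CPM in Ctr, and 2 were lower, S100b and Aldoc. The other 7 summed to 1859 and 2162 CPM in Alt and 1944 to 2215 CPM in Ctr. Of 8 microglial markers 3 were lower and 1 higher, with sums of 439 and 495 CPM against 466 to 529 CPM and the largest difference in the complement gene C1qa (-1.09 ± 0.29, edgeR adjusted p = 0.121). Of 10 vascular markers 2 were higher and 0 lower, with sums of 815 and 881 CPM against 609 to 722 CPM and the largest difference in the receptor gene Kdr (0.83 ± 0.27, edgeR adjusted p = 0.146). Of 10 oligodendrocyte markers 2 were lower, of 9 striatal markers 1 and of 5 blood markers 1, with none higher. The largest differences in these lists were in Mbp (-0.51 ± 0.14), the opioid peptide gene Penk (-1.03 ± 0.34) and the globin gene Hbb-bt (-1.09 ± 0.52), with edgeR adjusted p of 0.124, 0.146 and 0.269. Of 8 excitatory markers, 2 (Slc17a7 and Camk2a) were higher and 1 lower, the last being Neurod6, a neuronal bHLH factor gene, with 92.1 to 124 CPM in Ctr and 53.5 and 82.3 CPM in Alt (-0.65 ± 0.20, edgeR adjusted p = 0.135). Nrgn, a calmodulin-binding protein gene of the same list, had 404 CPM in Alt replicate 1 and 838 CPM in Alt replicate 2, against 725 to 1056 CPM in Ctr (-0.56 ± 0.26, edgeR adjusted p = 0.262). Since 10.3% of all genes were lower and 9.45% higher here, several of these counts are near the background. Single libraries moved most of them: leaving out 1 library, 1 to 4 inhibitory, 0 to 2 astrocyte, 1 to 4 microglial and 0 to 2 vascular markers were lower, and 1 to 2, 0 to 1 and 1 to 4 astrocyte, microglial and vascular markers were higher. Of the excitatory markers, 0 were higher and 1 lower without Ctr replicate 1, and 0 higher and 2 lower without Ctr replicate 2. The part of all these markers in the values of Arc, Npas4 and the other genes was not tested.

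The count of 5 genes rested on single libraries. It was 2 without Ctr replicate 1 (1994 genes in all at that level), 3 without Ctr replicate 2 (3249 genes), 2 lower and 1 higher (Fos) without Alt replicate 1 (1505 genes), and 8 without Alt replicate 2 (6259 genes), against 3414 genes with all libraries. Arc and Npas4 kept an unadjusted p under 0.05 under each of 14 alternatives, with log2 fold changes of -1.79 to -1.03 and -2.18 to -1.11. In the alternatives that leave 1 Alt library, that library is assumed to vary like those of the other groups.

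**Figure D3:**
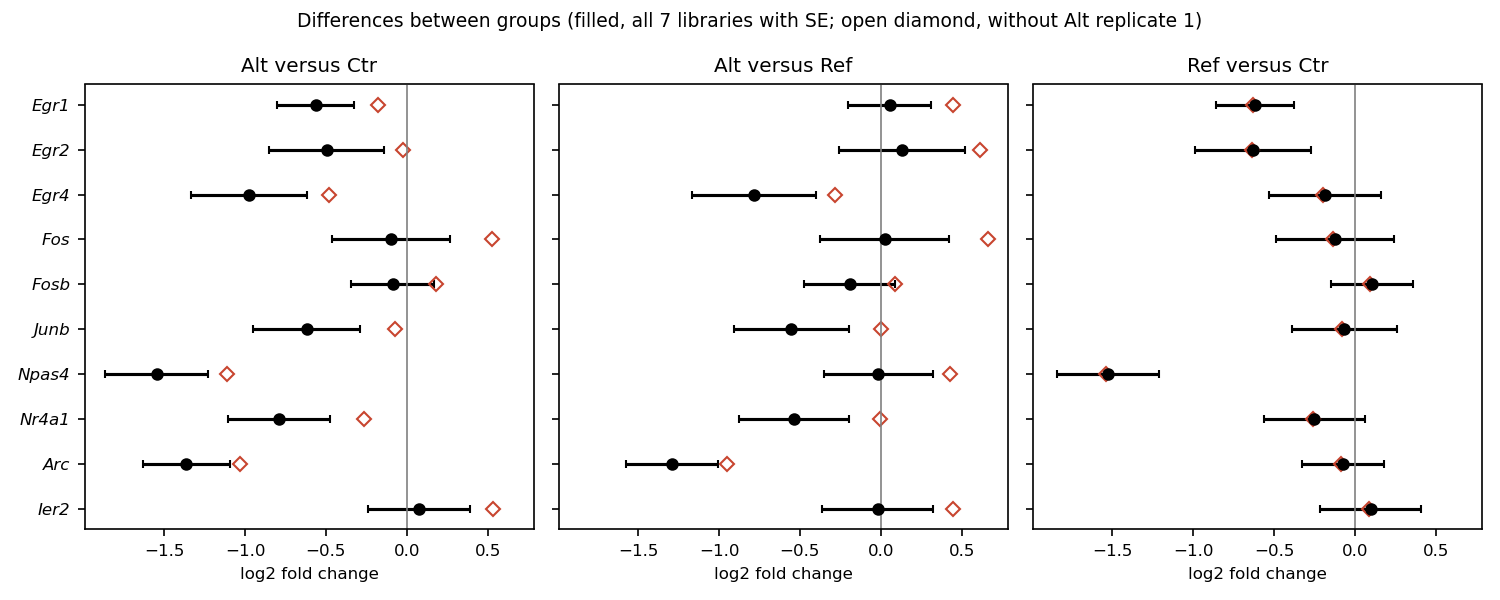
Log2 fold change of each gene in the 3 comparisons from edgeR (filled circles, bars ± SE, all 7 libraries) with the value without Alt replicate 1 as open diamonds. In Alt against Ctr and Alt against Ref the diamonds lie to the right of the circles for all 10 genes, and Arc stays lowest in Alt against Ref at -0.95 without that library.

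Ref against Ctr asks what the same RNA does with the reference allele. This comparison shares its controls with the one above. At an unadjusted p under 0.05, 2 of the 10 genes, Npas4 and Egr1, were lower and 0 were higher, against 0.945% of all genes tested that were lower and 2.19% that were higher. None passed an adjusted p of 0.05. The median log2 fold change of the 10 genes was -0.16 and that of all genes 0.01.

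Npas4 in Ref had a log2 fold change of -1.53 ± 0.32, a p that ranked 8th of all genes, and an adjusted p of 0.822 in edgeR. Its 2 Ref values, 8.61 and 8.79 CPM, were nearly equal. DESeq2 gave an adjusted p of 0.0108, and edgeR gave 0.0413 without Alt replicate 1 and 0.0358 without Alt replicate 2. The fold change stayed between -1.65 and -1.35 under 14 alternatives. Egr1 had 303 and 299 CPM in Ref, below all 3 Ctr libraries, with -0.62 ± 0.24 (edgeR adjusted p = 1). Without Ctr replicate 1, its highest library, Egr1 was at -0.46 and no longer under an unadjusted p of 0.05, nor was it without either Ref library (-0.62 each). Egr2 in Ref, at 13.3 and 11.2 CPM, also lay below all Ctr libraries (-0.63 ± 0.36, edgeR adjusted p = 1, and -0.30 without Ctr replicate 1). These 3 genes were the only ones of the 10 without overlap, where 10.5% of all genes were lower without overlap. The other 7 gave -0.25 (Nr4a1), -0.19 (Egr4), -0.12 (Fos), -0.07 (Arc), -0.07 (Junb), 0.10 (Ier2) and 0.10 (Fosb), with both Ref libraries of Arc, 228 and 227 CPM, inside the control range.

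Markers of other cell types also differed in the Ref libraries. Of 10 oligodendrocyte markers, 7 were higher in Ref than in Ctr at an unadjusted p under 0.05 and 0 lower, with a median of 0.77, and their summed level was 3984 and 4926 CPM in Ref against 2386 to 3326 CPM in Ctr and 2297 to 2859 CPM in Alt. Mobp, a myelin protein gene with the largest difference of the list, had 530 and 649 CPM in Ref and 245 to 354 CPM in Ctr (1.06 ± 0.19, edgeR adjusted p = 0.621). Of 8 excitatory markers, 2 were lower in Ref, the larger difference being Neurod6 at -0.52 ± 0.20 (edgeR adjusted p = 1). Of 8 astrocyte markers, 3 were higher in Ref and 0 lower, with a median of 0.32 and the largest difference in Aldoc (0.50 ± 0.19, edgeR adjusted p = 1). The largest differences in the other lists were in Adarb2 (-0.46 ± 0.47), C1qa (0.28 ± 0.27), Cdh5 (0.43 ± 0.24), Adora2a (0.47 ± 0.47) and Hbb-bt (-1.07 ± 0.52), and none of these 5 genes was at an unadjusted p under 0.05. Of 10 vascular markers 1 was, Flt1, higher in Ref at 0.39 ± 0.17 (edgeR adjusted p = 1). Leaving out 1 library, 6 to 10 oligodendrocyte markers were higher, but only 0 to 4 astrocyte markers (0 without Ctr replicate 3, 1 without Ctr replicate 1 or Ref replicate 1), and 0 to 2 excitatory markers were lower (0 without Ctr replicate 1 or Ref replicate 1). The part of tissue make-up in the Ref values of Npas4 and Egr1 was not tested.

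Alt against Ref compares the alleles directly, with 2 libraries on each side. Arc was the only one of the 10 genes at an unadjusted p under 0.05, against 8.83% of all genes tested that were lower at that level and 6.71% higher. Its log2 fold change was -1.29 ± 0.28 (adjusted p = 0.229 in edgeR and 0.00428 in DESeq2). Without Alt replicate 1 it was -0.95 (edgeR adjusted p = 0.609). The count of 1 gene lower became 2 without Ref replicate 2 and 7 without Alt replicate 2, and without Alt replicate 1 it was 1 lower and 2 higher (Fos and Egr1). It was lower in Alt without overlap, as were 26.1% of all genes. Adjusted for all genes, 0 of 10 passed and 0.0058% of genes tested did, which is the single gene Mbp of oligodendrocytes (-1.29 ± 0.16, edgeR adjusted p = 0.0481). In the same comparison 7 of 10 oligodendrocyte markers were lower at an unadjusted p under 0.05, with a median of -0.82 and the largest difference in Opalin (-1.40 ± 0.31, edgeR adjusted p = 0.229), as were 4 of 8 microglial (C1qa at -1.36 ± 0.31), 2 of 8 inhibitory (Sst at -1.09 ± 0.28) and 2 of 8 astrocyte markers (Aldoc at -0.93 ± 0.22). The largest differences in the other lists were in Nrgn (-0.59 ± 0.29), Kdr (0.80 ± 0.30), Drd2 (-1.04 ± 0.84) and Hbb-bs (-0.60 ± 0.27). Leaving out 1 library, 6 to 10 oligodendrocyte, 2 to 4 microglial, 1 to 3 inhibitory and 2 to 3 astrocyte markers were lower. Their part in the value of Arc was not tested.

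Npas4, with its Ref values inside the range of the Alt values, gave -0.02 ± 0.34 (edgeR adjusted p = 0.989). The sign changed with the scaling, and the value ran from -0.64 without Alt replicate 2 to 0.43 without Alt replicate 1. Egr4 (-0.78 ± 0.38), Junb (-0.55 ± 0.36) and Nr4a1 (-0.54 ± 0.34) had the next lowest values, with edgeR adjusted p of 0.35 to 0.482. Without Alt replicate 1 they were -0.28, 0.00 and -0.01. Fosb, Ier2, Fos, Egr1 and Egr2 lay between -0.19 and 0.13. The median of the 10 genes was -0.11, against -0.04 for all genes, and 0.26 without Alt replicate 1.

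The make-up of the signal, each gene as a share of the summed TPM of the 10, compares genes within a library and does not depend on its scaling. Shares do not remove the relation of deviations with gene length, and the 10 genes run from 1524 to 6243 bases. The part of length in the shares was not tested. Arc made up 26.3%, 27.3% and 20.8% in Ctr, 28.0% and 30.0% in Ref, and 18.7% and 14.9% in Alt. Its share was lower in both Alt libraries than in any other. Npas4 made up 1.95%, 1.72% and 2.19% in Ctr, 0.781% and 0.861% in Ref, and 1.11% and 1.09% in Alt. The 3 groups did not overlap for Npas4, nor for Egr1 and Ier2, whose shares follow. Egr1 held 32.3% to 33.5% in Ctr, 25.4% and 27.0% in Ref, and 40.1% and 35.3% in Alt. Ier2 held 3.15% to 3.20% in Ctr, 3.48% and 4.81% in Ref, and 5.40% and 5.55% in Alt. The 2 Alt libraries were close in the shares of Npas4 and Ier2, and differed in those of Fos (7.57% and 12.01%), Junb (8.77% and 11.2%) and Fosb (2.34% and 1.66%). Shares sum to a fixed total, so a lower share of Arc raises the others, and they were given no test. Shares in other sets of genes were not computed, so how often groups separate in this way is not known.

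**Figure D4:**
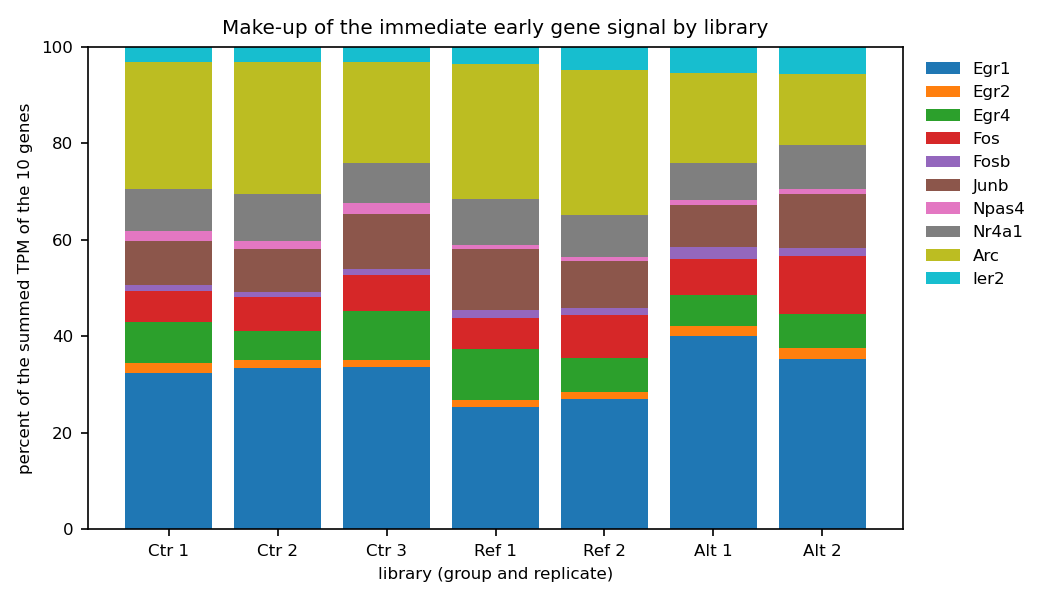
Share of each of the 10 genes in their summed TPM (percent, stacked to 100) for each library. The share of Arc is 18.7% and 14.9% in the Alt libraries against 20.8% to 30.0% in the others, and that of Egr1 is lowest in Ref.

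Related genes of the pathway were described by the same counts. Of 40 other rapid-response genes, Alt had 11 lower and 3 higher against Ctr at an unadjusted p under 0.05, with a median of -0.02, where 10.3% of all genes were lower and 9.45% higher. The split rested on single libraries. Leaving out Alt replicate 1, 1 was lower and 9 higher, where 4.46% and 3.68% of all genes were. Without Ctr replicate 1 or 2, 2 were lower, with 4 and 2 higher, and without Alt replicate 2, 17 were lower and 2 higher. With the correction for length, 6 were lower and 6 higher. Alt replicate 1 had the lowest list median, at -0.45, with 32 of 40 genes below the control mean, as were 8965 of all 17254 genes tested. Ctr replicate 3 had 33 of 40 genes below that mean with a median of -0.23, where 8276 of all genes were below. Alt replicate 2 had a median of 0.12. The phosphatase gene Dusp5 had 10.03, 12.5 and 5.99 CPM in Ctr and 1.69 and 5.52 CPM in Alt, a log2 fold change of -1.38 ± 0.47 (edgeR adjusted p = 0.156) that was -0.78 without Alt replicate 1. The zinc-finger gene Klf10 had 46.7 to 74.2 CPM in Ctr and 36.1 and 43.8 CPM in Alt (-0.58 ± 0.20, edgeR adjusted p = 0.162). The kinase gene Sik1, a CREB target that restrains CREB coactivators, went the other way: it had 14.9 to 21.3 CPM in Ctr, 34.8 and 31.5 CPM in Ref, and 31.2 and 40.2 CPM in Alt, without overlap between Alt and Ctr, as for 16.8% of all genes tested that were higher in Alt. Its log2 fold change was 1.06 ± 0.22 in Alt (adjusted p = 0.12) and 0.95 ± 0.22 in Ref (adjusted p = 1) by edgeR. Klf4 gave 1.05 ± 0.31 in Alt, which was 0.48 without Alt replicate 2, and 1.02 ± 0.31 in Ref. In Ref, 4 of the 40 were higher than in Ctr and 0 lower, where 2.19% and 0.945% of all genes were, and 2 to 7 were higher leaving out 1 library (2 without Ref replicate 1). Against Ref, 6 were lower in Alt and 0 higher, where 8.83% and 6.71% of all genes were (0 and 0 without Ref replicate 1, 2 and 2 without Alt replicate 1, 17 and 0 without Alt replicate 2, 3 and 0 with the length correction), led by Ier5l at -1.14 ± 0.36 (edgeR adjusted p = 0.236, and -0.72 without Ref replicate 1).

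Of 19 delayed effector genes, a class on which the immediate early factors act, Alt had 3 higher and 1 lower against Ctr, near the 9.45% and 10.3% of all genes, and 1 to 4 higher and 0 to 5 lower leaving out 1 library. Sv2c, a synaptic vesicle protein gene with the smallest p, had 57.6 and 13.2 CPM in Alt and 10.1 to 16.98 CPM in Ctr, a log2 fold change of 1.40 ± 0.45 that was -0.01 without Alt replicate 1. Inhba, an activin subunit gene, overlapped too (0.71 ± 0.31), and was at 1.09 ± 0.35 against Ref (edgeR adjusted p = 0.236). Both values of Inhba were lower without Alt replicate 1, at 0.17 and 0.55. Against Ref, 3 of the 19 were higher in Alt at an unadjusted p under 0.05 and 0 lower, where 6.71% and 8.83% of all genes were. In Ref 0 were higher and 2 lower than in Ctr, where 2.19% and 0.945% of all genes were. The latter were Homer1, a synaptic scaffold gene (-0.49 ± 0.16), and Bdnf, a neurotrophin gene (-0.57 ± 0.21), both with an edgeR adjusted p of 1. Without Ref replicate 1 neither was at an unadjusted p under 0.05 (-0.45 for Homer1 and -0.47 for Bdnf), and Bdnf was not without Ctr replicate 2 (-0.45). Homer1 had 254 and 266 CPM in Ref, 318 to 420 CPM in Ctr, and 358 and 360 CPM in Alt, so both Alt libraries lay within the control range while Arc did not.

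Of 30 genes for the kinases and factors that switch these genes on, Alt had 11 higher and 2 lower against Ctr, with a median of 0.19, where 9.45% of all genes were higher and 10.3% lower. Leaving out Alt replicate 1, 6 were higher and 0 lower, where 3.68% and 4.46% of all genes were, and without Ctr replicate 1, 5 were higher and 1 lower, where 5.69% and 6.06% were. Both Alt libraries had the highest signed correlation of deviations with gene length (0.341 and 0.208), while that of Ctr replicate 1 was -0.212. With the correction for length, 5 were higher and 1 lower, with a median of 0.04, where 7.3% and 9.06% of all genes were. Camk4, a calcium-dependent kinase of the nucleus, had 24.97, 44.2 and 45.4 CPM in Ctr, 39.6 and 44.1 CPM in Ref, and 100.5 and 65.5 CPM in Alt, a log2 fold change of 1.12 ± 0.25. Mrtfb, an SRF coactivator, had 268 to 322 CPM in Ctr, 288 and 323 CPM in Ref, and 623 and 414 CPM in Alt (0.83 ± 0.18). Adcy1, a calcium-stimulated adenylyl cyclase, had 799.5 to 1114 CPM in Ctr, 1098 and 1281 CPM in Ref, and 2432 and 1257 CPM in Alt (0.93 ± 0.24), so that Alt replicate 2 lay between the Ref libraries. Alt replicate 1 was the highest of the 7 libraries for all 3 genes, and without it the log2 fold changes were 0.78 for Camk4, 0.51 for Mrtfb and 0.38 for Adcy1. Mef2c, an activity-regulated factor, was at 0.52 ± 0.14 and at 0.38 without that library. With the correction for length, Camk4 was at 1.32, Mrtfb at 0.61, Adcy1 at 0.55 and Mef2c at 0.07, so that the value of Mef2c was mostly lost. The edgeR adjusted p of these 4 genes were 0.12 to 0.124 with all libraries and 0.504 to 0.612 without Alt replicate 1. Map2k2, a kinase of the ERK cascade, was lower at -0.67 ± 0.21 (edgeR adjusted p = 0.137), and at -0.40 without Alt replicate 1. Against Ref, 8 were higher and 1 lower, where 6.71% and 8.83% of all genes were (3 and 0 without Ref replicate 1, 5 and 1 without Alt replicate 1, 4 and 1 with the length correction), and between Ref and Ctr 0 of 30 reached an unadjusted p under 0.05 in edgeR. The summed level of these genes was 13457 and 12116 CPM in Alt and 9902 to 10835 CPM in the others.

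The 10 heat shock genes, another rapidly induced class, were lower in Alt than in Ctr in the fitted value for 10 of 10, with a median of -0.48. So were 8984 of all 17254 genes tested. Of the 10, 2 had an unadjusted p under 0.05, where 10.3% of all genes were lower at that level. They were Dnajb5 (-0.81 ± 0.25) and Dnajb1 (-0.49 ± 0.22), with edgeR adjusted p of 0.134 and 0.246. These values were -0.48 for Dnajb5 and -0.15 for Dnajb1 without Alt replicate 1, where 0 of 10 were under that p and the median was -0.14. Without Alt replicate 2, 8 of 10 were, with a median of -1.08. With the correction for length, 1 of 10 was lower at an unadjusted p under 0.05, and the median was -0.30. As for the immediate early genes, 1 library stood out: Alt replicate 1 had a list median of -1.07, whereas Alt replicate 2 had -0.09.

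**Figure D5:**
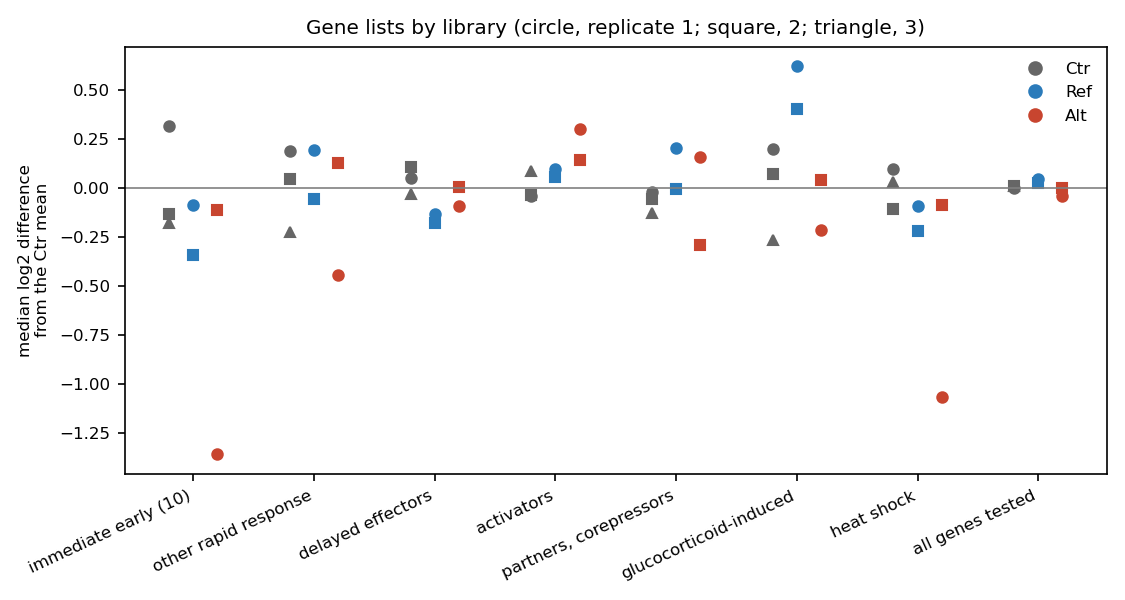
Median log2 difference from the mean of the Ctr libraries for each gene list (x axis), with 1 point per library coloured by group. Alt replicate 1 lies at -1.36 for the 10 immediate early genes and -1.07 for heat shock genes, and the medians of all genes tested lie close to 0 in all libraries.

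Over the 7 libraries, the profile of the 10 genes (mean of their standardized log2 CPM) was 1.11, 0.14 and 0.12 in Ctr, 0.12 and -0.10 in Ref, and -1.74 and 0.37 in Alt. The genes most like it, by Pearson r over 7 libraries, were Bok, Mfsd5, Dnajc21, Btbd10, Rsph9, Zfp593, Odad4, Armcx1, Ak4 and Atp6ap1, with r from 0.996 to 0.985. Zfp593 and Odad4 had means under 1 CPM. Of the pathway genes, the nearest were the polo-like kinase gene Plk2 at rank 94 (r = 0.964) and Gadd45b at rank 103 (r = 0.962). The profile was lowest in Alt replicate 1 and highest in Ctr replicate 1, and likeness was not computed without either.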

How the data were processed

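Poly(A) RNA of prefrontal cortex was sequenced in 7 libraries. The submitters' processing notes name STAR and featureCounts without versions, and the build hg19, which is human although the gene identifiers are mouse. The mouse build is not given in the sources used here, and 0 of the 10 genes have the table's coordinates in the GRCm38 annotation. The authors deposited raw counts per gene, TPM, FPKM and gene lengths in 1 table. Deposited counts were tested, deposited TPM were used for levels between genes, and deposited FPKM were not tested. Columns of lengths served the length correction.

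Genes passing filterByExpr were scaled by TMM and tested with edgeR 4.0.16 (quasi-likelihood, group means, 7 libraries, R 4.3.3), with Benjamini-Hochberg adjustment over 17254 genes. SE are of log2 fold changes. CPM used the scaled library sizes, log2 CPM a prior count of 2. Alternatives were DESeq2 1.42.0, its size factors, no filter, only the 2 groups compared, a loess correction for length (span 0.3), a replicate block, and each library left out. Scripts were tested on simulated data. The 10 genes and all lists were chosen with earlier results of these data known. Text names all 10 genes in every comparison, genes of each related list drawn from the at most 6 per comparison with the smallest p, the marker of each list with the largest change, and the 10 genes most like the profile. Slc17a7, Camk2a, S100b, Plk2 and Gadd45b, Nrgn and Aldoc in Alt against Ctr, Flt1 in Ref against Ctr, and Mbp in Alt against Ref were named after their values were seen. Sequences are from RefSeq (GRCm38.p6).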

Additional observations from a re-analysis of the deposited data

How the results depend on the processing

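With 2 or 3 libraries a group, single libraries decided most values. For members with an adjusted p under 0.05, where the reported count was 0 in each comparison, Alt against Ctr gave 2 with DESeq2 and 6 without the low-count filter, and 0 to 8 leaving out 1 library. Alt against Ref gave 1, 2 and 0 to 5, and Ref against Ctr 1, 1 and 0 to 1. At an unadjusted p under 0.05 the counts ran from 2 to 8 (reported 5), 1 to 7 (reported 1) and 1 to 3 (reported 2) leaving out 1 library, where 1505 to 6259, 790 to 5451 and 236 to 1040 of all genes did so. For Alt against Ref, the count was 2 with DESeq2 and 4 without the filter. DESeq2 without Alt replicate 1, chosen after seeing the data, gave 1, 0 and 2 genes adjusted, and 3 genes unadjusted in both Alt comparisons. The median over the 10 genes ran from -1.37 to -0.13 (Alt against Ctr), -0.89 to 0.26 (Alt against Ref, 0.26 also with DESeq2 without Alt replicate 1) and -0.36 to 0.0081 (Ref against Ctr) leaving out 1 library. Over all genes with an adjusted p under 0.05, Alt against Ctr gave 0 in edgeR, 1123 with DESeq2 and 1484 without the filter, Alt against Ref 1, 449 and 850, and Ref against Ctr 0, 6 and 40. Without Alt replicate 2, 3451 and 2708 genes passed in the Alt comparisons. The cause was not tested.

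Some signs turned, mostly in genes near 0, but also in Junb and Nr4a1 (-0.55 and -0.54 reported in Alt against Ref) and Sv2c (1.40 reported in Alt against Ctr, decided by Alt replicate 1). Leaving out 1 library, Alt against Ctr ran from -1.23 to 0.52 in Fos, -0.42 to 0.18 in Fosb, -0.60 to 0.53 in Ier2 and -0.015 to 2.11 in Sv2c. Alt against Ref ran from -0.46 to 0.45 in Egr1, -0.57 to 0.61 in Egr2, -1.10 to 0.66 in Fos, -0.51 to 0.085 in Fosb, -0.68 to 0.44 in Ier2, -1.44 to 0.0020 in Junb and -0.64 to 0.43 in Npas4. Ref against Ctr ran from -0.28 to 0.15 in Arc, -0.57 to 0.10 in Egr4, -0.32 to 0.048 in Fos, -0.051 to 0.32 in Fosb, -0.10 to 0.27 in Ier2 and -0.32 to 0.14 in Junb. The length correction gave 0.082 for Fos in Alt against Ctr, and 0.36 for Ier2 and 0.11 for Npas4 in Alt against Ref. DESeq2 gave 0.0080 for Ier2 and 0.012 for Npas4, and its size factors 0.0092 and 0.013, in Alt against Ref. DESeq2 without Alt replicate 1 gave 0.54 for Fos, 0.19 for Fosb and -0.0058 for Sv2c in Alt against Ctr, and 0.094 for Fosb, 0.45 for Ier2, 0.012 for Junb, 0.43 for Npas4 and 0.0021 for Nr4a1 in Alt against Ref.

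Correlations of deviations from the group mean between same-numbered libraries were -0.0984 to 0.0702. With 2 libraries in Ref and in Alt, the deviations of a group mirror each other. Ref with Alt therefore gave -0.0886 for both replicate numbers. Differently numbered libraries were not compared, so these values do not settle whether replicate numbers mark pairs. With the replicate block, 4 of 10 genes had an unadjusted p under 0.05 in Alt against Ctr, 1 in Alt against Ref and 2 in Ref against Ctr, and Arc was at -1.59 (edgeR adjusted p = 0.365). The block gave -0.10 for Fos in Alt against Ref, and -0.12 and -0.052 for Ier2 in Alt and Ref against Ctr. The block with the length correction gave -0.021 for Fosb and -0.16 for Ier2 in Ref against Ctr, and 0.34 for Ier2 and 0.095 for Npas4 in Alt against Ref. Of 450 values of the 10 genes under alternatives, 373 kept direction and side of the threshold, 30 moved past it and 47 turned.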

Other observations

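Glucocorticoid-induced genes, which respond to stress hormone and include feedback regulators of its receptor, differed in the Ref libraries from both other groups in part of the list. Of 12 such genes, Ref had 6 higher and 0 lower against Ctr at an unadjusted p under 0.05, with a median log2 fold change of 0.54, where 2.19% of all genes were higher and 0.945% lower, and 4 to 7 were higher leaving out 1 library (4 without Ctr replicate 3 or Ref replicate 1). Fkbp5, a cochaperone of the receptor, was at 0.87 ± 0.19 (edgeR adjusted p = 1). In Alt against Ref, 7 were lower and 0 higher, where 8.83% and 6.71% of all genes were, with a median of -0.77, led by Tsc22d3 at -1.23 ± 0.31 (edgeR adjusted p = 0.229). In Alt against Ref, 2 were lower without Ref replicate 1, 4 without Ref replicate 2, 5 without Alt replicate 1, and 4 with a correction for gene length. Against Ctr, Alt had 2 higher and 2 lower, where 9.45% and 10.3% of all genes were, and 0 to 2 higher and 1 to 4 lower leaving out 1 library. Oligodendrocyte markers moved the same way between these groups, with 7 of 10 higher in Ref than in Ctr (median 0.77) and 7 of 10 lower in Alt than in Ref (median -0.82), as did astrocyte markers, with 3 of 8 higher in Ref than in Ctr (median 0.32) and 2 of 8 lower in Alt than in Ref. The 3 became 0 without Ctr replicate 3, and 1 without Ctr replicate 1 or Ref replicate 1. Their part in the glucocorticoid values was not tested.

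Among 7 tested partners and corepressors of the immediate early factors, Nab2, a corepressor of the EGR factors, was lower in Alt without overlap against both groups, at -0.94 ± 0.27 against Ctr and -0.94 ± 0.29 against Ref (edgeR adjusted p of 0.127 and 0.236), where 18.1% and 26.1% of all genes were lower without overlap. Without Ref replicate 1, Nab2 was at -0.58 against Ref. Arnt2, a partner of Npas4, was higher in Alt than in Ctr without overlap (0.36 ± 0.15, edgeR adjusted p = 0.207), as were 16.8% of all genes, and was at 0.21 without Alt replicate 1.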
